A study of Rattus norvegicus with 4 samples.

Results

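Across the cell classes of the rat pituitary, 10 immediate early genes were followed: Fos, Fosb, Jun, Junb, Atf3, Egr1, Nr4a1, Ier2, Btg2 and Zfp36. They were taken by symbol from the gene list deposited with the count matrix, where all 10 were found among 32883 genes. Cells came from female Sprague Dawley rats aged 75 days at random stages of the estrous cycle, with no treatment or genotype that separates the groups, and were freed with trypsin and EDTA. Lobes dissected from 30 pooled glands gave a posterior and an anterior library, and 30 other glands pooled whole gave 1 suspension that was run on 2 lanes. No undispersed tissue was analysed here, so RNA present in the gland and RNA made during dispersal cannot be told apart.

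Immediate early genes are transcribed within minutes of a stimulus from factors already bound at their promoters, without new protein synthesis, and their messages decay quickly. Serum response factor, which binds the CArG box, and CREB, which binds the cyclic AMP response element, are the classic relays from MAP kinase, calcium and cyclic AMP signals. In the pituitary they respond to hypothalamic releasing hormones, and in dissociated tissue they are widely used as a sign of handling.

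The letters of these elements were sought on both strands in RefSeq promoters of build GRCr8, which run from 250 bases before to 50 after a gene's start, because they are the textbook sites at which such genes are switched on. Promoters of 7 of the 10 genes were matched; Fos, Jun and Atf3 were not. The CArG box, searched in its consensus form, was present in 1.64% of 33469 promoters of this length and in those of Zfp36 and Egr1. The full cyclic AMP response element TGACGTCA was present in 1.83% of promoters and in those of Btg2 and Ier2. No promoter of the matched genes held both. A match of letters is a description and shows no binding. The sites of Zfp36, Btg2 and Ier2, and not that of Egr1, are printed 5′ to 3′ on the gene's strand, with the element in capitals. Each has 30 bases before the element and up to 30 after it. The Zfp36 stretch was cut at the gene's start and is 62 bases long. The Zfp36 site lies at chr1:92799109-92799170 on the minus strand and its element starts 32 bases before the gene. For Btg2 the stretch is chr13:48087854-48087921, also on the minus strand, with the element 201 bases before the gene. For Ier2 it is chr19:40399277-40399344 on the plus strand, with the element 66 bases before the gene.
Zfp36: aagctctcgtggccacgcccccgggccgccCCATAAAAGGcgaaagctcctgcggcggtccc
Btg2: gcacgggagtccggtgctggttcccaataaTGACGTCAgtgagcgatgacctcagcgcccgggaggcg
Ier2: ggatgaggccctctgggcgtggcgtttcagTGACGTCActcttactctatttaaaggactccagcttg

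The 4 libraries held 61981865 to 72754998 unique molecular identifiers (UMIs, each a captured RNA molecule), and 19777 of 32455 barcodes were kept as cells, with median depths of 9572.5 to 10604.5 UMIs. In the posterior library 45.4% of barcodes had more than 20% mitochondrial UMIs and were left out, against 27.2% to 27.9% in the others. Of the barcode sequences kept as cells, 33 occurred in more than 1 library. Cells were clustered without the 10 genes, without 4 further lists of immediate early, signaling and stress genes and without mitochondrial genes. Classes were named from marker genes and carry the ending "-like". Because these markers served to name the classes, their sums describe the labels and do not test them. The 7 folliculostellate markers summed to 3393 and 3394 UMIs per 1000000 UMIs in dissected and whole-gland folliculostellate-like cells. In any other tested class they summed to at most 1662. The 8 pituicyte markers summed to 10665 and 9648 in pituicyte-like cells, against at most 1324 elsewhere. Hormone RNA was present in both: Prl made up 3.87% and 3.22% of UMIs in folliculostellate-like cells of dissected lobes and whole glands, against 47.9% and 50.4% in lactotroph-like cells, and Gh1 made up 0.80% and 2.99% in pituicyte-like cells, against 32.3% and 33.5% in somatotroph-like cells.

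Levels are given as UMIs per 1000000 UMIs of a class (CPM). The replicates are 2 preparations, dissected lobes and whole glands. For the dissected one, cells were drawn from the lobe in which a class resides. Pituicyte-like and melanotroph-like cells came from the posterior library, and folliculostellate-like cells and the hormone classes from the anterior one. Endothelial-like, fibroblast-like and macrophage-like cells came from either. Of their dissected cells 240 of 318, 158 of 200 and 273 of 442, in that order, were posterior. This mix of lobes was not matched to that of whole glands. The 10 genes together were highest in folliculostellate-like cells, the non-hormone glia of the anterior lobe, at 39467 CPM in the dissected and 38450 CPM in the whole-gland preparation. In pituicyte-like cells, the resident glia of the neural lobe, they were lowest, at 1939 and 1299 CPM. Means of the highest and lowest class differed 24.1-fold for the sum.

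Between these ends lay endothelial-like cells with 27984 CPM in dissected lobes and 25378 CPM in whole-gland cells, and fibroblast-like cells with 21650 and 21657 CPM. Somatotroph-like cells had 10481 and 9527 CPM, gonadotroph-like cells 9088 and 9268 CPM, macrophage-like cells 8788 and 9424 CPM and corticotroph-like cells 8261 and 9204 CPM. Melanotroph-like cells followed with 5673 and 6273 CPM, thyrotroph-like cells with 5630 and 6297 CPM and lactotroph-like cells with 5932 and 4968 CPM. Of the 10 pairs of neighbours in this order, 6 did not overlap between preparations. The 4 that overlapped were gonadotroph-like and macrophage-like, macrophage-like and corticotroph-like, melanotroph-like and thyrotroph-like, and thyrotroph-like and lactotroph-like cells.

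The place of lactotroph-like cells depended on the scale, and Prl alone filled 47.9% and 50.4% of their UMIs. Scaled by TMM, an edgeR factor that discounts such genes, the sum was 9944 and 8882 in dissected and whole-gland lactotroph-like cells, with a higher mean than the 8151 and 8933 of gonadotroph-like cells, and the groups overlapped. Folliculostellate-like cells remained highest on that scale at 35327 and 34317, and pituicyte-like cells lowest at 1698 and 1015.

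**Figure D1:**
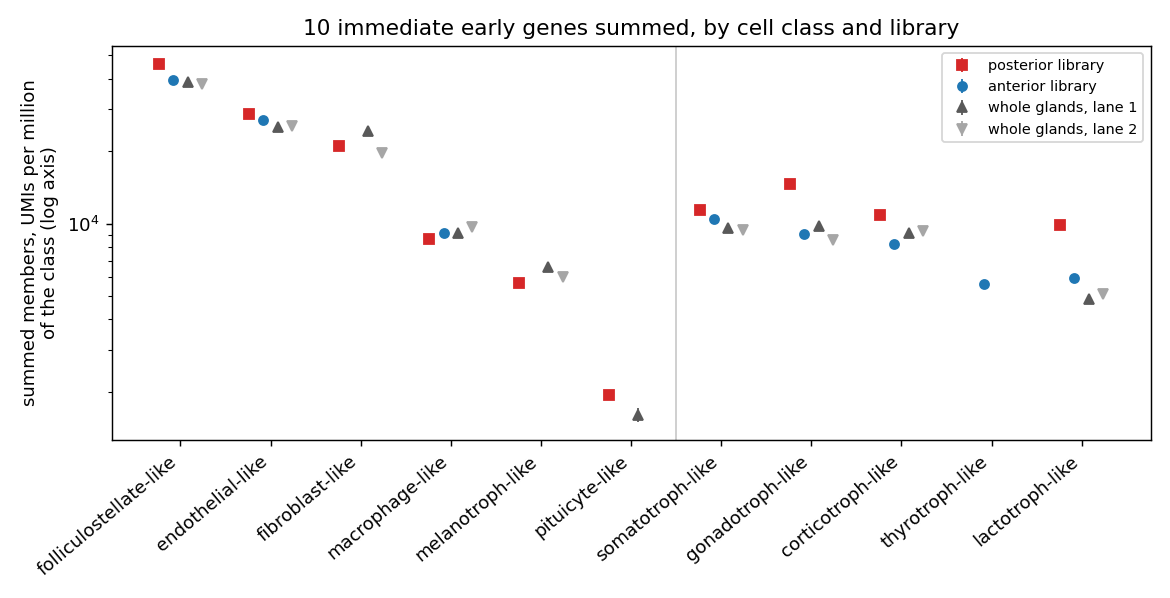
Summed UMIs of the 10 genes per 1000000 UMIs of the class (log axis) in each library, for classes with at least 50 cells in that library; bars are 95% Poisson intervals for counting error and are mostly smaller than the symbols. Folliculostellate-like cells are at the top in all 4 libraries, at 38077 to 45875, and pituicyte-like cells are at the bottom in the 2 libraries that held at least 50 of them, posterior and whole-gland lane 1.

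In the AP-1 group, Fos (ENSRNOG00000008015), whose protein pairs with Jun proteins, had 11734 CPM in posterior, 10236 CPM in anterior, and 10358 and 10342 CPM in whole-gland lanes 1 and 2 among folliculostellate-like cells. In pituicyte-like cells it had 696 CPM in the posterior library and 486 CPM in whole glands. The hormone classes lay between these groups without overlap, from 1798 CPM in dissected thyrotroph-like cells to 4449 CPM in whole-gland corticotroph-like cells. Fosb (ENSRNOG00000046667), a close relative of Fos, had 2686 and 2352 CPM in the dissected and whole preparations of folliculostellate-like cells, against 217 and 105 CPM for pituicyte-like cells. Here the bottom of the order was shared, because melanotroph-like cells with 144 and 172 CPM overlapped pituicyte-like cells and had the lower mean; on the TMM scale pituicyte-like cells were lowest.

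Jun (ENSRNOG00000026293), a DNA-binding partner of Fos, had 5023 and 4934 CPM in dissected and whole-gland folliculostellate-like cells and 4778 and 5079 CPM in endothelial-like cells. These groups overlapped, so Jun did not separate them. It had 181 and 89.3 CPM in pituicyte-like cells, and 263 to 812 CPM over the hormone classes. Junb (ENSRNOG00000042838), a partner with weaker activity on many targets, had 6123 and 6234 CPM in folliculostellate-like cells, against 205 and 168 CPM in pituicyte-like cells. Its hormone classes ranged from 964 CPM in whole-gland lactotroph-like to 1916 CPM in whole-gland gonadotroph-like cells, clear of both. The order within that range depended on the scale. By TMM the mean was 1845 in lactotroph-like and 1720 in gonadotroph-like cells.

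Atf3 (ENSRNOG00000003745), a stress-induced member of the ATF family, had the widest range of the 10 genes, 65.5-fold between the means of the highest and lowest class. It had 2003 and 1667 CPM in dissected and whole-gland folliculostellate-like cells, and 39.9 CPM (365 UMIs) and 16.1 CPM (15 UMIs) in pituicyte-like cells. Its 95% Poisson interval in whole-gland pituicyte-like cells was 9.03 to 26.6 CPM. Among hormone cells, gonadotroph-like cells stood out with 614 and 604 CPM, while whole-gland thyrotroph-like cells had 53.8 CPM.

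Egr1 (ENSRNOG00000019422), a zinc finger transcription factor induced by serum response factor, had 3711 and 3305 CPM in folliculostellate-like cells, against 141 and 101.1 CPM in pituicyte-like cells. Hormone classes had 265 to 895 CPM, and macrophage-like cells, at 387 and 294 CPM, lay within that range. Nr4a1 (ENSRNOG00000007607), an orphan nuclear receptor that activates Pomc transcription in corticotrophs, had 893 and 796 CPM in folliculostellate-like cells, against 28.9 and 15.1 CPM in pituicyte-like cells. Corticotroph-like cells had 142 and 140 CPM of Nr4a1, below the 424 and 380 CPM of gonadotroph-like cells and the 342 and 324 CPM of melanotroph-like cells. Endothelial-like cells differed most between preparations, with 695 CPM of Nr4a1 in dissected and 180 CPM in whole-gland cells. The mix of lobes was not matched between these preparations, and its part in the difference was not tested.

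Ier2 (ENSRNOG00000054344), a small nuclear protein of the early response, had 2105 and 2178 CPM in folliculostellate-like cells, against 98.9 and 92.5 CPM in pituicyte-like cells. Btg2 (ENSRNOG00000003300), an antiproliferative cofactor that promotes deadenylation of messages, had 5187 and 5351 CPM in folliculostellate-like cells, against 296 and 196 CPM in pituicyte-like cells. Gonadotroph-like cells carried more Btg2 than any other hormone class, at 2152 and 2037 CPM, and overlapped neither the endothelial-like cells above nor the fibroblast-like cells below. Zfp36 (ENSRNOG00000058388), whose product tristetraprolin speeds the decay of AU-rich messages, was the 1 gene of the 10 that was not highest in folliculostellate-like cells. It had 2043 and 1806 CPM in endothelial-like cells and 1501 and 1282 CPM in folliculostellate-like cells, with no overlap, and 34.8 and 30.1 CPM in pituicyte-like cells.

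**Figure D2:**
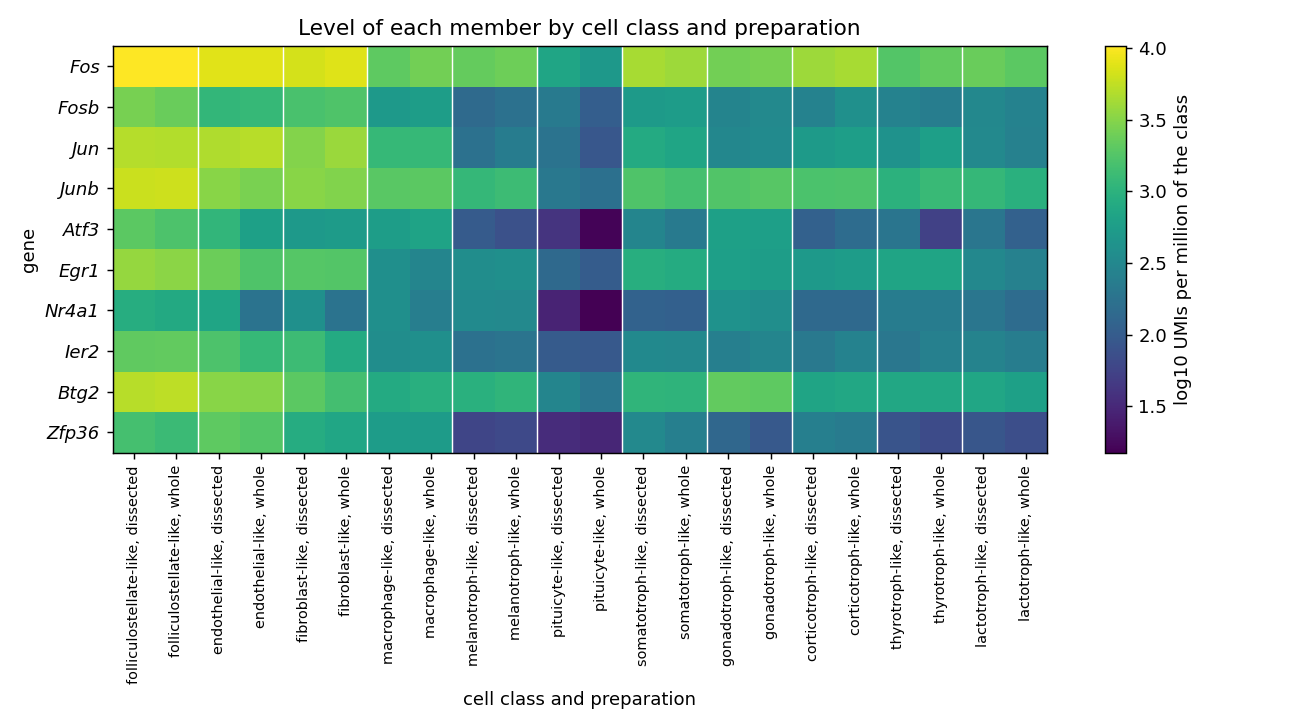
Level of each gene (rows) in each class and preparation (columns), as log10 CPM. Folliculostellate-like columns are brightest for 9 of the 10 genes by the mean of their preparations, Zfp36 is brightest in endothelial-like columns, and pituicyte-like columns are darkest for all but Fosb in melanotroph-like cells.

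To ask in which classes these levels stood apart from those of hormone cells, UMIs were summed per class and preparation, which gave 22 sums of 11 classes, and 14657 genes were tested with edgeR's quasi-likelihood test. Calls required an adjusted p (Benjamini-Hochberg, over all genes) under 0.05 and a log2 fold change of at least 1 in size. All 10 genes were called higher in folliculostellate-like cells than the mean of the 5 hormone classes, and 0 lower, where 23% of all genes tested were called higher and 11.5% lower. The median log2 fold change of the 10 was 2.53, against 0.09 over all genes. Jun differed most, by 3.18 ± 0.14 (SE, adjusted p = 5.47e-16, edgeR), followed by Zfp36 at 3.11 ± 0.09 and Atf3 at 2.91 ± 0.19. Ier2 (2.77), Fosb (2.66), Egr1 (2.41) and Btg2 (2.22) followed, and Nr4a1 (1.88), Junb (1.87) and Fos (1.60 ± 0.11, adjusted p = 5.64e-12, edgeR) differed least. By CPM, each was higher in both preparations than every hormone sum. Folliculostellate-like cells also had a higher median mitochondrial share, 11.3% and 10.96% in dissected and whole-gland cells, than lactotroph-like cells with 5.87% and 5.34%, though close to that of gonadotroph-like cells with 11.7% and 10.5%. With cells of at most 10% mitochondrial UMIs all 10 calls stood, from 1.45 for Fos to 3.16 for Jun.

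Pituicyte-like cells showed the opposite: 0 of the 10 genes were called higher and all 10 lower than the hormone mean, where 20.3% of all genes were called higher and 13.6% lower. The median of the 10 was -2.44, against 0.06 over all genes. Nr4a1 fell by 3.37 (SE 0.35, adjusted p = 9.63e-09, edgeR), Junb by 3.25 and Atf3 by 3.02. Fos fell by 2.60, Egr1 by 2.51, Zfp36 by 2.38, Btg2 by 2.27, Jun by 2.01, Ier2 by 1.80 and Fosb by 1.30. These cells had the highest median mitochondrial share of the 11 classes, 14.5% and 14.8% in dissected and whole-gland cells. Most of them thus exceed a limit of 10%. Of 1120 dissected cells, 51 lay below 5% and 124 at 5% to 10%. With cells of at most 10% mitochondrial UMIs, 6 of the 10 calls stood. The 4 that did not were Fosb at -0.60, Zfp36 at -0.81, Jun at -0.89 and Atf3 at -0.99.

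Set directly against pituicyte-like cells, folliculostellate-like cells were called higher for all 10 genes and lower for 0. Over all genes 16.6% were called higher and 12.3% lower. This contrast comes from the same fit and is the difference of those against the hormone mean, so it is no separate support. The median log2 fold change of the 10 was 5.02, against 0.03 over all genes. It ran from 3.96 ± 0.25 for Fosb (SE, adjusted p = 3.71e-12, edgeR) and 4.20 for Fos to 5.49 for Zfp36 and 5.93 ± 0.38 for Atf3 (adjusted p = 2.97e-12, edgeR). With cells of at most 10% mitochondrial UMIs the 10 differences were smaller, 3.07 for Fosb to 4.06 for Jun, and all were still called. Those values rest on the few pituicyte-like cells under that limit.

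In endothelial-like cells 8 of the 10 genes were called higher than the hormone mean and 0 lower, where 28.8% of all genes were called higher and 18.6% lower. Zfp36 was 3.50 ± 0.09 higher (log2, SE, adjusted p = 6.33e-21, edgeR) and Jun 3.09. Ier2 (2.10), Atf3 (1.72), Egr1 (1.55), Fosb (1.48), Btg2 (1.41) and Fos (1.09) were called too, the last not under 4 of 15 alternatives, and the 2 not called were Junb at 0.75 and Nr4a1 at 0.74. Fibroblast-like cells were called higher for 7 genes and lower for 0, where 21.7% of all genes were called higher and 11.7% lower: Jun (2.68), Zfp36 (2.31), Fosb (2.06), Ier2 (1.79), Egr1 (1.48), Atf3 (1.12) and Fos (1.09). The Fos call there was lost under 3 of 15 alternatives. Macrophage-like cells were called higher for Zfp36 (2.12), Atf3 (1.71) and Jun (1.48) and lower for 0 of the 10, where 23.8% of all genes were called higher and 20% lower, so that 3 of 10 is close to the share of all genes. Melanotroph-like cells were called higher for 0 of the 10 and lower for Atf3 (-1.03) and Jun (-1.02), where 9.92% of all genes were called higher and 5.31% lower. Both of those calls lie at the fold threshold and were lost under several settings.

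**Figure D3:**
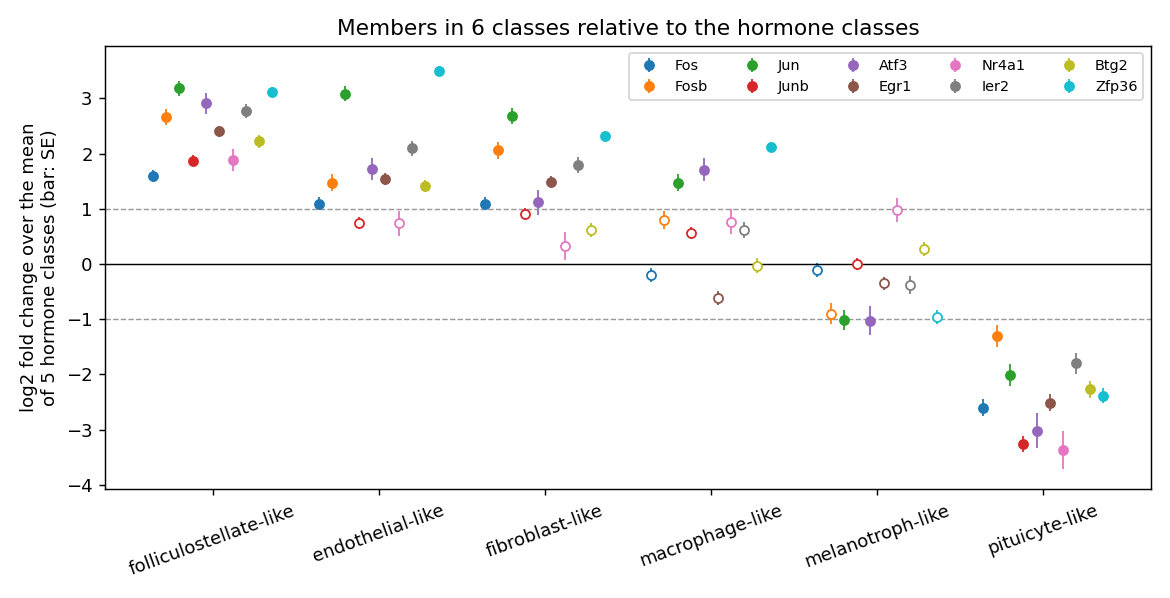
Log2 fold change of each gene in 6 non-hormone classes over the mean of the 5 hormone classes (bars, SE of the edgeR fit on 2 preparations); filled symbols passed the adjusted p and the fold threshold marked by dashed lines. All 10 symbols are filled and positive in folliculostellate-like cells (1.60 to 3.18) and filled and negative in pituicyte-like cells (-3.37 to -1.30).

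Each hormone class was set against the mean of the other 4. Gonadotroph-like cells were called higher for Atf3 by 1.75 ± 0.21 (log2, SE, adjusted p = 6.16e-07, edgeR), Btg2 by 1.18 and Nr4a1 by 1.10 and lower for 0 genes, where 8.84% of all genes were called higher and 4.91% lower. The Nr4a1 call was lost at the 10% mitochondrial limit, at 0.90. Somatotroph-like cells were called higher for Zfp36 by 1.52 ± 0.10 (adjusted p = 1.32e-11, edgeR), and for Jun at 1.05 and Fosb at 1.01, and lower for 0, where 7.89% of all genes were called higher and 6% lower. Jun and Fosb lie at the threshold; Fosb was no longer called under 13 of 15 alternatives and Jun under 10. Thyrotroph-like cells were called lower for Zfp36 (-1.57), Atf3 (-1.56) and Fos (-1.16) and higher for 0, where 4.35% of all genes were called higher and 2.8% lower. The Fos call was lost under 3 of 15 alternatives, with values up to -0.81, and the Atf3 call under 1, at -0.72. The median of all genes there was -0.24, so relative to it the 3 differences are smaller; it was 0.13 in the endothelial-like, lactotroph-like and somatotroph-like contrasts and within 0.1 of 0 in the others. Corticotroph-like cells were called lower for Atf3 (-1.05) alone and higher for 0, where 8.02% of all genes were called higher and 7.03% lower. Lactotroph-like cells were called for 0 of the 10 in either direction, where 10.3% of all genes were called higher and 6.71% lower; the largest difference was Ier2, not called at 0.84 with an adjusted p of 5.47e-05 (edgeR), and 5 of the 10 had an adjusted p under 0.05. DESeq2 also called 0 of the 10 there.

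The share of cells with a UMI was read after each cell was thinned to 1000 UMIs. At least 1 UMI of the 10 genes was found in 96.8% of 850 dissected and 96.6% of 1690 whole-gland folliculostellate-like cells, with exact binomial 95% intervals of 95.4% to 97.9% and 95.7% to 97.4%. In pituicyte-like cells the share was 51.4% of 1120 dissected and 38.2% of 102 whole-gland cells, with intervals of 48.5% to 54.4% and 28.8% to 48.4%. Unthinned, the shares were 99.1% and 98.7% in folliculostellate-like cells and 86.8% and 78.4% in pituicyte-like cells. No class is known to lack these genes, so a background of free RNA could not be read from these shares. The share in pituicyte-like cells, the lowest, came at median depths of 6480 and 8994 UMIs. In folliculostellate-like cells the median depths were 6372.5 and 5946.5 UMIs. All 850 and 1690 folliculostellate-like cells held enough UMIs to be thinned, so none were left out.

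For single genes the thinned shares spread widely. Fos was found in 92.6% and 90.6% of folliculostellate-like cells of dissected lobes and whole glands, against 26.2% and 14.7% of pituicyte-like cells, and Jun in 91.5% and 90.4%, against 10.4% and 7.84%. Nr4a1 was found in 405 of 850 and 676 of 1690 folliculostellate-like cells, against 2.95% of dissected and 0 of 102 whole-gland pituicyte-like cells, where the exact interval allows up to 3.55%. Cells within a class were unequal. The variance of the summed count over its mean is 1 for counting noise alone. It was 11.7 and 13.3 in folliculostellate-like cells, 6.95 and 7.42 in pituicyte-like cells and 25.4 and 16.6 in fibroblast-like cells. At equal relative spread this ratio rises with the mean count, which differed between the classes, so it does not rank them by inequality.

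Mitochondrial share is often read as a sign of damage, so cells of each class and library were binned by it in steps of 5 points, and the genes were counted per 1000000 non-mitochondrial UMIs. In 20 of 22 groups of class and library with at least 2 bins of 50 cells or more, the sum was lower in the bin of highest than of lowest share, with a median ratio of 0.77 and a range of 0.16 to 1.37. Folliculostellate-like cells had a lower sum in the top bin in all 4 libraries, by a factor of 0.75 to 0.84. In the anterior library they had 32936 at 15% to 20% mitochondrial UMIs, against 44188 at 5% to 10%. The drop was steeper in lactotroph-like cells, with 1374 at 15% to 20% in the anterior library, against 8840 below 5%, and ratios of 0.16, 0.24, 0.32 and 0.89 over the 4 libraries. The posterior library, at 0.89, had only bins up to 10%. Median depth of lactotroph-like cells in the anterior library also fell across these bins, from 18884.5 UMIs below 5% to 6377 at 15% to 20%. The part of depth in the drop was not tested. Somatotroph-like cells had ratios of 0.43 to 0.85. Melanotroph-like cells went the other way with a ratio of 1.37 in the 1 library that could be binned.

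Pituicyte-like cells showed no steady trend. The sum was 1451 at 15% to 20% mitochondrial UMIs (503 cells), 2367 at 10% to 15% (442 cells), 5589 at 5% to 10% (124 cells) and 1957 below 5% (51 cells). The last bin had a median of 1393 UMIs per cell, against 4353.5 to 9331 in the others. By gene, Jun was lower in the top bin in 21 of 22 groups and Fos and Zfp36 in 20 of 22, whereas Nr4a1 was lower in 12 of 22 and Fosb in 15 of 22. Over the 11 classes, Pearson's r between the summed level and the median mitochondrial share was -0.29 in the dissected and -0.38 in the whole-gland preparation (Spearman's rho -0.15 and -0.04). Without the 2 classes farthest from the median share it was 0.48 and 0.51, so the sign rested on those classes.

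**Figure D4:**
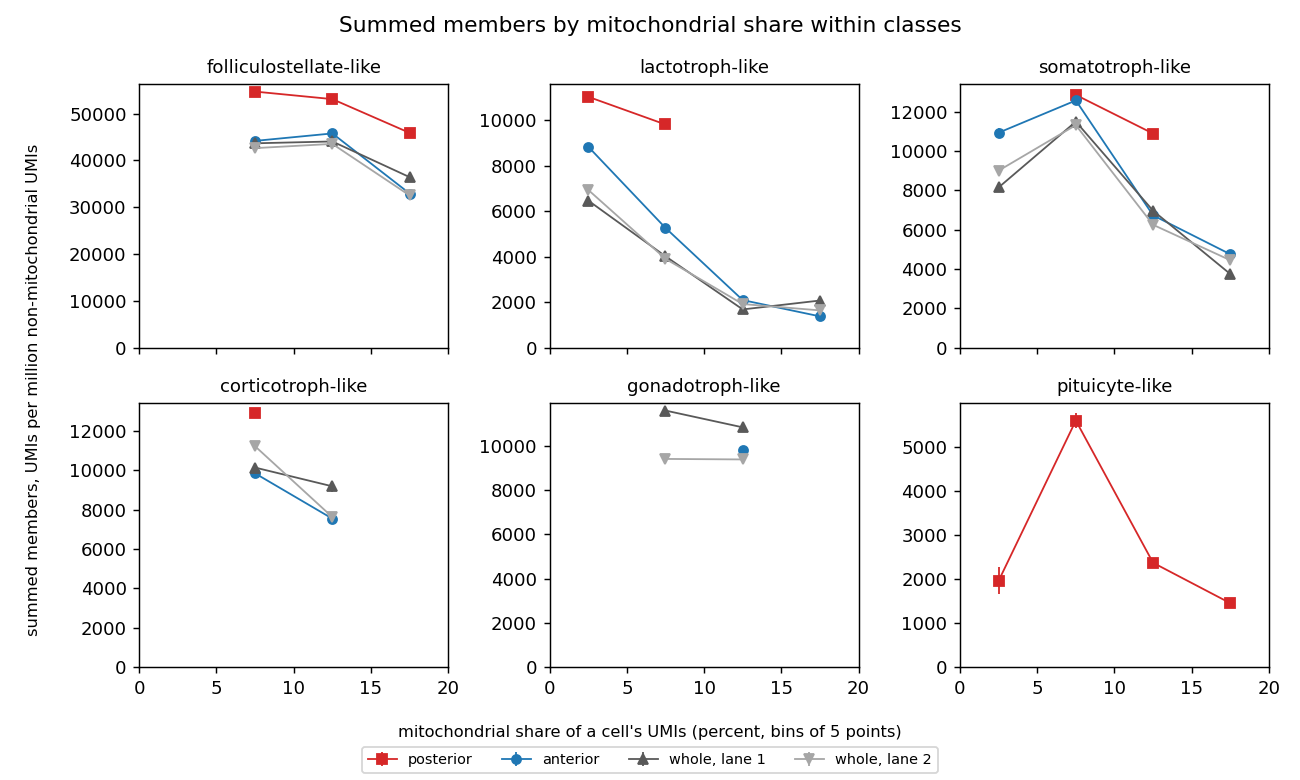
Summed UMIs of the 10 genes per 1000000 non-mitochondrial UMIs (vertical axes from 0, scaled per panel) against the mitochondrial share of a cell (bins of 5 points), by library, for bins with at least 50 cells; bars are 95% Poisson intervals. Lactotroph-like cells of the anterior library lie at 8840 in the lowest bin and 1374 in the highest.

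Depth within a class was examined by splitting the cells of each library into tertiles of UMI count. In folliculostellate-like cells the deepest over the shallowest tertile had a ratio of 0.87 to 1.33 for the sum, with a median of 0.99. The genes divided: Egr1, Atf3, Zfp36 and Nr4a1 were higher in the deepest tertile in all 4 libraries, with median ratios of 1.25, 1.24, 1.33 and 1.55, while Ier2 was lower in all 4, with a median of 0.86. Lactotroph-like cells were higher in the deepest tertile in all 4 libraries, and somatotroph-like cells in 3 of 4, with ratios of 1.16 in the anterior, 1.27 in the posterior and 0.88 and 1.10 in the whole-gland libraries. Corticotroph-like and gonadotroph-like cells were lower there in all 3 libraries that could be split, by factors of 0.46 to 0.55 and 0.49 to 0.61. In whole-gland lane 1, gonadotroph-like cells had 9455 in the deepest tertile, against 19385 in the shallowest.

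Classes were made of clusters that differed in these genes. None of the 10 had entered the clustering, but genes on no list that vary with them could have, so the clusters need not be independent of them. Among lactotroph-like cells, cluster 2 had a sum of 9171 CPM in the dissected preparation and 8363 CPM in whole glands, and cluster 4 had 1258 and 1128 CPM. Cluster 6 had 6132 and 5222 CPM, cluster 15 had 2759 and 2563 CPM and cluster 11 had 2209 and 3037 CPM, so the order of the last pair differed between preparations. Pooled over all libraries, cells of cluster 4 had fewer UMIs than those of cluster 2, a median of 11429.5 against 17681, and a higher mitochondrial share, 7.4% against 4.9%; the part of these in the difference was not tested. The sum in cluster 4 lay below that of pituicyte-like cells as a class in each preparation. Somatotroph-like cells fell into cluster 1, with 13638 CPM in dissected lobes and 12798 CPM in whole glands, and cluster 0, with 7196 and 6640.1 CPM. Pooled over libraries, those clusters had like depth, at medians of 9394 and 9279 UMIs, and like mitochondrial share, at 7.77% and 7.75%. Jun differed most between them, with 1294 and 1193 CPM in cluster 1 and 311 and 281 CPM in cluster 0.

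The folliculostellate-like clusters 9 and 3 had close sums, 38353 CPM in dissected lobes and 37775 CPM in whole glands for cluster 9 and 40292 and 38957 CPM for cluster 3, made up of the genes in different amounts. Cluster 9 had more Egr1, with 4474 and 3918 CPM against 3145 and 2845 CPM in cluster 3, more Nr4a1, with 1110.1 and 1038 CPM against 732 and 614 CPM, and more Atf3, with 2242 and 1913 CPM against 1825 and 1483 CPM. It had less Junb, with 4964 and 5219 CPM against 6981 and 6996 CPM, and less Ier2, with 1659 and 1777 CPM against 2435 and 2480 CPM. Fos was at 9280 and 9726 CPM in cluster 9 and 10944 and 10820 CPM in cluster 3. Cells of cluster 9 were deeper, with a median of 11079 UMIs against 5934 over all libraries. Endothelial-like cluster 18 held 201 of its 241 cells in the dissected preparation, in which Nr4a1 was at 1037 CPM in cluster 18 and 319.6 CPM in cluster 14. In pituicyte-like cells the shallow cluster 13, with a median of 1973 UMIs per cell, had 2918 CPM of the sum in dissected lobes, against 1772 CPM in cluster 7. In whole glands cluster 7 had 551 CPM in 77 cells, below the 1299 CPM of the whole class. Cluster 13 held fewer than 50 cells there and was not read alone, so the whole-gland class level rests in part on those few shallow cells. Without cluster 13 every call was as before.

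**Figure D5:**
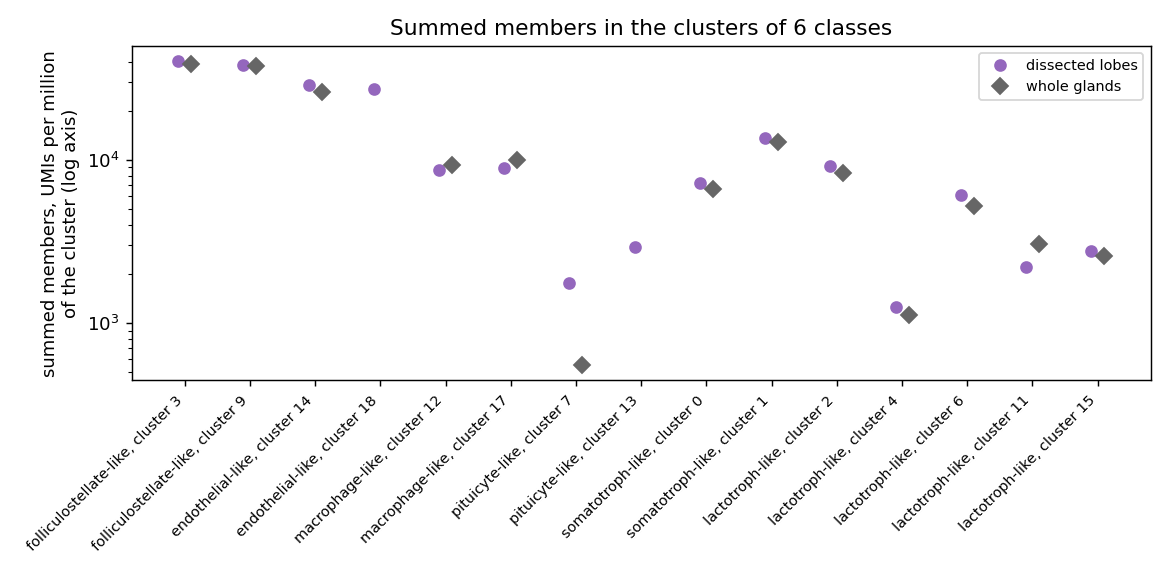
Summed UMIs of the 10 genes per 1000000 UMIs of the cluster (log axis) for clusters of 6 classes with at least 50 cells in a preparation, dissected lobes left and whole glands right. Lactotroph-like clusters spread from 1128 to 9171, while folliculostellate-like clusters lie close together.

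The libraries of the lobes were compared only as values, since each lobe is 1 library. Folliculostellate-like cells and hormone classes were assigned above to the anterior lobe. Their cells in the posterior library need not reside in the posterior lobe, and their origin was not tested. The summed level in posterior over anterior cells of the same class had a ratio of 1.67 in lactotroph-like, 1.60 in gonadotroph-like, 1.31 in corticotroph-like, 1.16 in folliculostellate-like, 1.09 in somatotroph-like, 1.06 in endothelial-like and 0.95 in macrophage-like cells. Lactotroph-like cells had 9894 CPM in 458 posterior cells, against 5932 CPM in 2228 anterior cells. Over the 10 genes and 7 classes, 57 of 70 values were higher in the posterior library. Egr1 and Nr4a1 were higher in all 7 classes, with median ratios of 1.22 and 1.59. The median size of the log2 ratio over these 70 values was 0.33, and with 1 library per lobe it has no replicate check. The posterior library was also the one with the most barcodes over the mitochondrial limit. Depth differed too, with medians of 26814 posterior and 15109 anterior UMIs in lactotroph-like cells. The medians were 12561 and 6893 in corticotroph-like and 15552 and 9159.5 in somatotroph-like cells. Endothelial-like cells went the other way, at 4805 and 9366. The part of either in the ratios was not tested.

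Among cells of a class the genes varied together. Over 16 groups of class and preparation with at least 200 cells, Pearson's r across cells of log-scaled counts was highest for Fos with Junb, at a median of 0.75, and Fos with Egr1, at 0.71, and lowest for Jun with Nr4a1, at 0.33. The median over all pairs was 0.69 in dissected and whole-gland folliculostellate-like cells, and 0.32 in pituicyte-like and 0.31 in whole-gland macrophage-like cells. Cells share a library and its free RNA, and sparse counts lower r, so these are descriptions. Of 3107 other genes, those most like the sum by mean r over the 16 groups included Dusp1 (0.53), a phosphatase that ends MAP kinase signaling, AABR07044412.1 (0.52), Socs3 (0.51), a feedback inhibitor of cytokine receptors, Dnajb1 (0.51), an HSP40 chaperone, and LOC108348108 (0.49).

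Other immediate early genes were read from a list of 41, all of which were tested. In folliculostellate-like cells 35 were called higher than in hormone cells and 1, the neuronal factor Npas4, lower, where 23% of all genes were called higher and 11.5% lower; in endothelial-like cells the counts were also 35 and 1, where all genes gave 28.8% and 18.6%. Fibroblast-like cells had 28 higher and 2 lower (all genes 21.7% and 11.7%), macrophage-like cells 30 and 4 (23.8% and 20%), and melanotroph-like cells 9 and 7 (9.92% and 5.31%). In pituicyte-like cells 10 were called higher and 24 lower (all genes 20.3% and 13.6%), with a median log2 fold change of -1.59, against 3.38 in folliculostellate-like cells. The 3 most abundant of the list were Dusp1, Gadd45g, a growth arrest gene, and Socs3. Dusp1 had 1195 and 1154 CPM in folliculostellate-like cells of dissected lobes and whole glands, against 136 and 87.1 CPM in pituicyte-like cells. Gadd45g was 2.85 higher (log2) in folliculostellate-like cells and 3.26 lower in pituicyte-like cells than the hormone mean, and Socs3 was 2.26 higher and 3.04 lower. Dusp1 was 2.29 higher in lactotroph-like cells than in the other hormone classes, where none of the 10 genes was called.

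Genes that act upstream run from kinases to the factors CREB and serum response factor. Of 18 tested, folliculostellate-like cells had 4 called higher and 1, Crtc1, lower, with a median of -0.03, and 2 higher and 4 lower in pituicyte-like cells. Over all genes 23% were called higher and 11.5% lower in folliculostellate-like cells, and 20.3% and 13.6% in pituicyte-like cells, so the count of higher calls in folliculostellate-like cells is close to the share of all genes. The 3 most abundant were Crem, Map2k2 and Mapk3. Crem, a CREB relative that is itself cyclic AMP induced, was 1.06 higher (log2) in folliculostellate-like and 2.07 lower in pituicyte-like cells than the hormone mean. Mapk3, the kinase ERK1, was 1.36 higher in pituicyte-like cells, while Map2k2, its activator, was called in neither class, at -0.43 in folliculostellate-like and 0.64 in pituicyte-like cells.

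Of 13 heat shock genes, folliculostellate-like cells had 4 called higher and 0 lower, and pituicyte-like cells 2 higher and 4 lower, against the same shares of 23% and 11.5%, and of 20.3% and 13.6%, over all genes. The small heat shock gene Hspb1 was higher in both, by 3.67 and 2.91 (log2), so it did not follow the 10 genes, and Hspa5, a chaperone of the endoplasmic reticulum, was 1.53 lower in pituicyte-like cells. Hsp90ab1 was called in neither, at 0.19 and -0.13. Of 16 genes of the integrated and oxidative stress responses, folliculostellate-like cells had 3 called higher and 0 lower, and pituicyte-like cells 1 higher and 6 lower. The higher counts of both stress lists are near those shares or below them. The lower counts in pituicyte-like cells, 4 of 13 and 6 of 16, are above the 13.6% of all genes. Set directly against pituicyte-like cells, folliculostellate-like cells had 6 of 13 heat shock genes called higher and 0 lower. Of the 16 other stress genes, 9 were called higher there and 0 lower. Over all genes 16.6% were called higher and 12.3% lower in that contrast. Atf4, the main factor of the integrated stress response, was 1.79 lower in pituicyte-like cells and not called in folliculostellate-like cells, at 0.72. Txnip, a thioredoxin inhibitor, was 1.36 lower in pituicyte-like cells, and Xbp1, a factor of the unfolded protein response, was called in neither, at 0.62 in folliculostellate-like and -0.94 in pituicyte-like cells.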

How the data were processed

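Messenger RNA was counted in 4 droplet libraries (10x Chromium 3′ version 3 chemistry, per the labels' protocols). The authors deposited raw counts of UMIs for each gene in each barcode, made with Cell Ranger 3.1, per the submitters' processing notes. A barcode suffix gives the library, per the labels. The genome build and whether libraries were equalized on aggregation are not given in the sources used here. The 10 genes, the lists and the rules were chosen with earlier results of these data known.

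Filters of 1000 UMIs, 500 genes and no more than 20% mitochondrial UMIs left 20381 of 32455 barcodes, and 604 with a Scrublet score above 0.25 were left out as doublets. Clustering used 2000 variable genes, 30 components, 15 neighbors and Leiden resolution 1 (scanpy 1.11.5). Of 25 clusters 22 were named. Sums over classes that had 50 or more cells in each preparation were tested with edgeR 4.0.16 (R 4.3.3; TMM, filterByExpr, terms for class and preparation, 10 residual degrees of freedom). Counting intervals are 95% exact Poisson or binomial intervals and cover counting error only. With a term for preparation, p-values measure how classes deviate between the 2 preparations, on a spread shared over classes. They do not measure variation between single animals. In endothelial-like, fibroblast-like and macrophage-like cells the unmatched mix of lobes also enters. SE is the log2 fold change over the square root of F. In data simulated for the folliculostellate contrast, calls were made for 100 of 100 genes at a 4-fold change and 47 of 100 at 2-fold. Among 13248 genes, 2 of 13048 with no change were called. Changed genes were drawn from those with higher expected counts, other genes did not differ between classes, and spread followed the trend over genes. These rates need not hold for sparse genes or for the real classes. Every gene of the 10 is named; folds are given for those called, and of each list the 3 genes with the highest mean CPM. Of the genes most like the sum, 1 is not reported here.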

Additional observations from a re-analysis of the deposited data

Results flagged for a closer look

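All 10 genes were higher in folliculostellate-like and lower in pituicyte-like cells than in hormone cells. Each was also called in the direct edgeR contrast of those glia-like classes. That contrast is the difference of the others, from the same fit, so it adds no separate support.

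The relation to depth within a class ran in opposite directions between some hormone classes. The summed level in the deepest over the shallowest tertile of lactotroph-like cells had a ratio of 1.70 in the anterior, 1.09 in the posterior and 1.36 and 1.57 in the whole-gland libraries. In corticotroph-like cells the ratio was 0.535 in the anterior and 0.553 and 0.461 in the whole-gland libraries, and in gonadotroph-like cells 0.614, 0.488 and 0.566. Every library went the same way within these 3 classes, whereas somatotroph-like cells went both ways, with ratios of 0.88 to 1.27. The difference between classes was not tested.

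Barcodes over the mitochondrial limit, used in no comparison, still held the 10 genes. Their sum was 5639 per 1000000 non-mitochondrial UMIs in the anterior library, 4618 in the posterior and 5528 and 4896 in whole-gland lanes 1 and 2, against 12897, 12874, 12333 and 11873 in the cells kept. These barcodes are of unknown class, and the makeup of the groups was not compared.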

How the results depend on the processing

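Of 60 calls of the 10 genes over 12 contrasts, 46 stood under each of 15 alternatives, 14 were lost under at least 1 and 0 changed sign. All 10 stood in folliculostellate-like cells, both against hormone cells and against pituicyte-like cells. The dissected and whole preparations come from different animals (median correlation of deviations between classes 0.02); without the replicate block the counts of calls were as before except in melanotroph-like cells, with 1 higher and 1 lower. In melanotroph-like cells 1 gene was called higher with DESeq2 size factors, DESeq2, at most 10% mitochondrial UMIs or at least 2000 UMIs (0 to 1 without single libraries). There 0 were called lower with DESeq2 size factors, DESeq2 or thinned cells, 1 with at least 2000 UMIs, doublets kept or mitochondrial genes left out, 4 at the 10% limit, and 1 to 4 without single libraries (4 without the anterior, 1 without the posterior library or lane 2). In pituicyte-like cells 6 were called lower at the 10% limit, which most of these cells exceed. In somatotroph-like cells 1 was called higher with DESeq2 size factors, DESeq2, thinned cells, at least 2000 UMIs, doublets kept, mitochondrial genes left out or both dissected libraries summed, and 1 to 2 without single libraries (1 without the anterior, posterior or lane 1 library); 0 to 1 were called lower. Lactotroph-like cells had 0 to 1 called higher, 1 without the anterior library. The 1 lower call of corticotroph-like cells went to 0 with thinned cells or doublets kept, and 0 to 1 without single libraries (0 without the anterior library or lane 2). In thyrotroph-like cells 1 was called lower with thinned cells. The Nr4a1 call of gonadotroph-like cells was lost at the 10% limit and the thyrotroph-like Fos call also with DESeq2 size factors and DESeq2. Without a library a class can rest on 1 sum, assumed to vary like the rest. The cause of these changes was not tested. Removing the shallow pituicyte-like cluster and TMM-scaled levels were chosen after seeing the data. The 102 whole-gland pituicyte-like cells limit the precision of the lowest counts.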

Other observations

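Classes too small for the comparisons also held the 10 genes. Schwann-like cells, myelinating or ensheathing glia of nerve fibres, had a summed level of 19760 CPM in 64 cells from dissected lobes and 12328 CPM in 20 cells from whole glands. Lymphocyte-like cells had 6198 CPM in 36 cells from dissected lobes and 6659 CPM in 45 cells from whole glands. A cycling cluster of no named class had 7537 CPM in 73 cells from dissected lobes and 6503 CPM in 122 cells from whole glands.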
